A study of Homo sapiens with 6 samples.

Results

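Parent HCT116 cells, the unaltered cells of a human colorectal carcinoma line, were profiled by RNA-seq, and their resting expression state was described gene by gene. The description rests on the 2 libraries labelled Parent, out of 6 libraries in the series. The other 4 libraries came from HCT116 cells that had been given 1 of 2 siRNAs against the long noncoding RNA LINC01534, and they were not compared here. The parent cells carry no siRNA in their labels, and no treatment or time point is given for them. HCT116 is an established line whose cells carry activating mutations in CTNNB1 and PIK3CA and have defective mismatch repair. Levels are FPKM, reads scaled by transcript length and by library size, a per-length scale on which different genes can be set side by side. Of 26255 gene symbols, 2247 short RNA genes (microRNA precursors, small nucleolar, Cajal body and spliceosomal RNAs) were set aside, and 24008 genes were described by the mean of both libraries.

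The lining of the colon is renewed from stem cells at the base of the crypts, which are kept dividing by Wnt signals through β-catenin and by growth factors through the RAS and ERK kinases. Their daughters climb the crypt and mature into absorptive colonocytes, mucus-filled goblet cells, hormone-secreting enteroendocrine cells and chemosensory tuft cells. Colorectal carcinomas keep parts of this programme and lose others, so the genes that a line expresses and those that it lacks both describe its state.

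Throughout, a gene was called expressed where its mean was at least 1 FPKM. In all, 11916 genes were expressed, 49.6% of those described. At least 10 FPKM was reached by 6657 genes (27.7%) and at least 100 FPKM by 880 genes (3.67%). A further 5458 genes lay above 0 and under 1 FPKM, and 6634 genes (27.6%) were listed at 0 in both libraries. Of 19007 protein-coding genes, 11154 were expressed, and of 2943 long noncoding genes 442 were. The percentages over all genes are the background for the counts of each gene list below.

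The libraries were much alike. Each gene is given as its FPKM in library 1 and then in library 2, and n = 2 wherever an SD is printed. Nothing in the labels says that the libraries came from separate cultures, so the spread between them may be technical. Among genes at 100 FPKM or more, the median fold between the libraries was 1.03, and it was 1.05 from 10 to under 100 FPKM and 1.09 from 1 to under 10 FPKM. Among genes above 0 in both libraries with a mean between 0.1 and 1 FPKM, the median fold widened to 1.401, and 1 gene in 20 differed by more than 4.01-fold. The files hold no read counts, but the steps between low values gave an estimate of about 10100000 reads per library. For a transcript of 2000 nt, 1 read was then worth 0.0551 FPKM, so a gene of that length listed at 0 may hold up to the worth of 3 reads, 0.165 FPKM. This limit covers counting error only. For a transcript of 5000 nt the limit was 0.0620 FPKM and for 1000 nt it was 0.372 FPKM. Levels under these values rest on a handful of reads and were not ranked against each other.

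**Figure D1:**
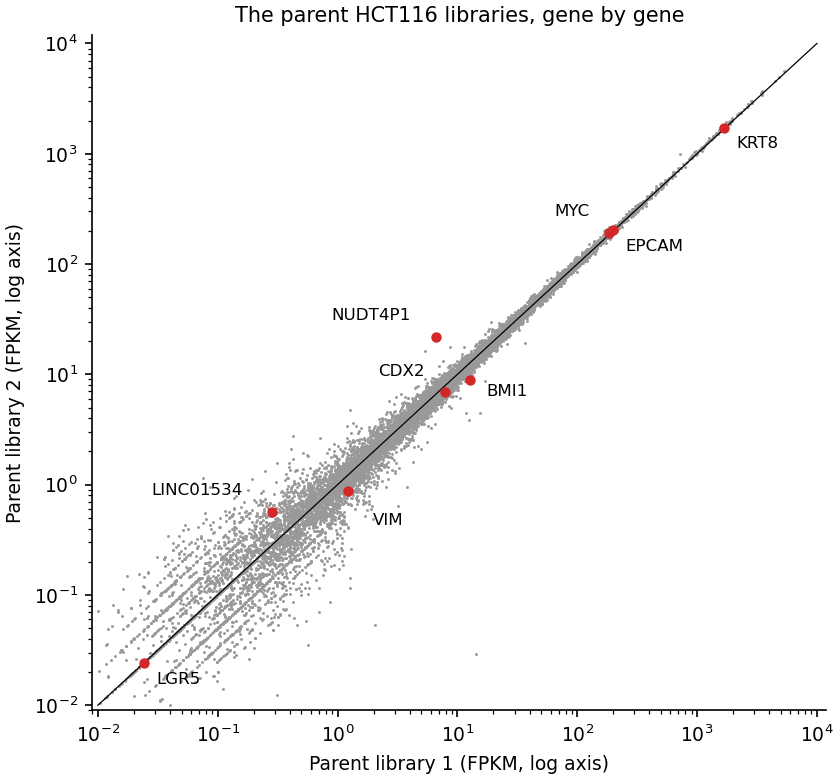
FPKM of 15657 genes in parent library 1 (horizontal, log axis) against parent library 2 (vertical, log axis), for genes at 0.01 FPKM or more in both. Each grey point is a gene, the line marks equal values, and red points are named genes. KRT8, EPCAM and MYC lie on the line, LINC01534 lies in the broad low cloud, and NUDT4P1 is a rare high gene off the line.

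A value at or near 0 in these files is not proof of absence. EIF3C, a subunit of a translation initiation factor that every cell uses, stood at only 0.0299 and 0.0646 FPKM, and it has a near-identical copy elsewhere in the genome. SLC25A6, a mitochondrial carrier gene that many cell types use, was listed at 0 in both libraries, and it lies in the pseudoautosomal region that both sex chromosomes hold. Genes at 0 are therefore described only as listed at 0.

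Ribosomal protein genes filled most of the 20 highest places. RPL41, a ribosomal protein gene, was the highest at 5282 and 5603 FPKM, followed by RPS2 at 4849 and 4994 FPKM and GAPDH, the glycolytic enzyme, at 4431 and 4604 FPKM. The next places were held by RPS18, EEF1A1, ACTG1, RPLP1, RPS27, RPS12 and HSP90AB1, the last a chaperone at 2894 and 2868 FPKM. RPL38, RPL8, RPLP0, PTMA, RPL37A, TMSB10, ACTB, RPL7, FTL and RPL12 completed the top 20. Genes of ribosomal proteins together held 21.7% of the summed FPKM. The 10 highest genes held 6.84%, the 100 highest 32.02% and the 1000 highest 65.2%. The keratin gene KRT8 was among the 40 highest genes, at place 39. Copies of EEF1A1, and of RPS2 and other ribosomal protein genes, are spread over the genome, so the levels of these genes are uncertain.

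The cells carried the transcripts of a simple epithelium at high level. EPCAM, the epithelial adhesion molecule (GRCh37 chromosome 2, 47572297 to 47614740), stood at 199.9 and 204 FPKM, above 98.3% of all genes. Of 38 genes of epithelial junctions and identity, 34 were expressed and 25 reached 10 FPKM, with a list median of 21.9 FPKM against 0.937 FPKM over all genes. SPINT2, an inhibitor of surface serine proteases, stood at 196 and 204 FPKM. The tight junction gene CLDN7 stood at 109.9 and 119 FPKM, CLDN4 at 72.5 and 69.6 FPKM, and the polarity and trafficking gene MAL2 at 112 and 107 FPKM. CDH1, which encodes E-cadherin, was lower, at 23.6 and 23.6 FPKM, and its partner CTNND1 (p120 catenin) was at 60.3 and 61.9 FPKM. The epithelial splicing regulators ESRP1 and ESRP2 stood at 36.1 and 35.3 FPKM and at 21.6 and 21.7 FPKM. Among claudins the picture was uneven. Of 24 claudins 6 were expressed (25%, against 49.6% of all genes), and 9 were listed at 0 in both libraries. CLDN1, a common epithelial claudin, was the only member of the junction list at 0 in both libraries. CLDN2 and CLDN18 stayed under 1 FPKM. Outside the claudins, OVOL2, a repressor of mesenchymal genes, also stayed under 1 FPKM.

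Keratins, the intermediate filaments of epithelial cells, were concentrated in 3 genes. KRT8 (GRCh37 chromosome 12, 53290971 to 53343738) stood at 1686 and 1730.5 FPKM, its partner KRT18 on the same chromosome at 995 and 998 FPKM and KRT19 at 546 and 559 FPKM. The GENCODE models of KRT8 and KRT18 overlap at their ends on opposite strands, and whether the quantification used the strand is not given. The 3 genes made up 98.1% of the summed FPKM of 18 keratins. The next were KRT15 at 16.8 and 15.3 FPKM, KRT80 at 12.9 and 14.01 FPKM and KRT10 at 11.4 and 11.4 FPKM. KRT23 and KRT7, the latter usually low in colorectal epithelium, stood at 8.94 and 9.86 FPKM and at 8.53 and 8.42 FPKM. KRT20, the keratin of mature colonocytes, reached only 0.928 and 1.12 FPKM, 1671 times less than KRT8. Every neighbouring pair in the order of the 10 expressed keratins was separated in both libraries (9 of 9 pairs). The squamous keratins KRT5, KRT14, KRT16, KRT6A and KRT6B stayed under 1 FPKM, and KRT1 and KRT17 were listed at 0. KRT6A and KRT6B are close copies, so reads could be divided between them.

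Genes of mature colonic cells were low or at 0. Of 36 enterocyte and colonocyte genes 4 were expressed (11.1% of the list against 49.6% of all genes), and 13 were listed at 0 in both libraries. The expressed members were CA2, a carbonic anhydrase, at 22.5 and 19.3 FPKM, PLS1, an actin bundler of the brush border, at 17.4 and 14.8 FPKM, USH1C at 2.43 and 2.64 FPKM, and KRT20. VIL1, which encodes villin, was listed at 0, and so were FABP1, FABP2, ALPI, APOB, CEACAM7 and SI. The colorectal antigens CEACAM5, GPA33 and CDH17 stood at 0.474 and 0.210, at 0.114 and 0.115 and at 0 and 0.0284 FPKM. Goblet cell genes had 1 expressed member of 16, REP15 at 3.92 and 2.45 FPKM, while the secreted mucin MUC2 stood at 0.0352 and 0.0353 FPKM and AGR2 and CLCA1 were listed at 0. Among 16 mucins and trefoil factors only MUC3A, MUC20 and MUC1 were expressed, at most 2.90 FPKM. Paneth, tuft and enteroendocrine genes had 1 expressed member of 24. That gene was SCG2, a granin of secretory granules, at 14.4 and 12.9 FPKM, whereas CHGA, NEUROD1 and NEUROG3 were listed at 0.

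The transcription factors behind intestinal identity were divided. EHF, an epithelial ETS factor, stood at 38.9 and 38.9 FPKM, TCF7L2, the nuclear partner of β-catenin, at 34.5 and 37.5 FPKM, SOX9, a factor of crypt progenitors, at 30.8 and 28.6 FPKM and KLF5 at 22.2 and 22.2 FPKM. CDX2, the factor that sets intestinal fate, was present at a modest 7.83 and 6.89 FPKM, or 7.36 ± 0.670 (mean ± SD), above 67.9% of all genes. Its relative CDX1 stood at 0 and 0.0633 FPKM, and HNF4A, a driver of the enterocyte programme, at 0.260 and 0.380 FPKM. GATA4, GATA5 and ISX, factors of the small intestine, were listed at 0. Of 12 markers of colorectal epithelium, 7 were expressed. The general epithelial markers EPCAM, CDH1, KRT8, KRT18 and KRT19 were expressed, CDX2 was expressed at a modest level, and KRT20 lay at the threshold. VIL1, CDH17, HNF4A, LGALS4 and CEACAM5 stood under 1 FPKM, and for those markers the data go against a mature colonic cell.

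**Figure D2:**
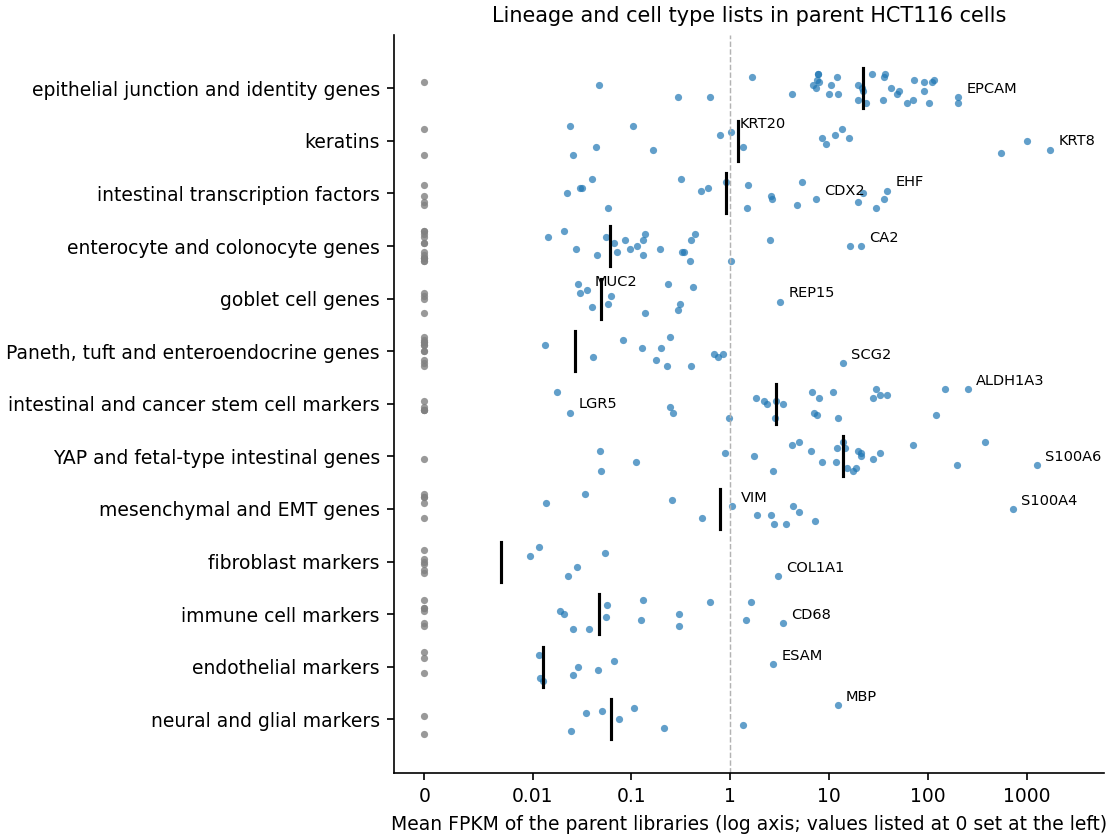
Mean FPKM of the 2 parent libraries (horizontal, log axis) for the members of 13 lists of lineage and cell type genes (rows). Each point is a gene, grey points at the left are listed at 0 in both libraries, black bars are list medians, and the dashed line marks 1 FPKM. Epithelial junction genes and YAP-related genes lie mostly to the right of the line, and mature intestinal, fibroblast, immune, endothelial and neural genes mostly to the left.

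Markers of other cell types were mostly under 1 FPKM. The 9 fibroblast markers summed to 3.11 FPKM in library 1 and 3.18 FPKM in library 2, nearly all of it COL1A1 at 3.02 and 3.05 FPKM. PDGFRA, DCN, LUM and FAP were listed at 0. The 8 immune markers summed to 0.186 and 0.552 FPKM, the 5 endothelial markers to 0.123 and 0.0922 FPKM, and the 5 neural and glial markers to 0.402 and 0.392 FPKM. In longer lists of such genes, a few members were expressed, among them MBP at 12.2 and 12.2 FPKM, CD68 at 3.92 and 2.88 FPKM and ESAM at 2.56 and 2.86 FPKM. Of 23 markers of other epithelia and tissues, 3 were expressed (13.04%), among them PAX8 at 1.26 and 1.73 FPKM and PMEL at 0.787 and 1.61 FPKM, and 10 were listed at 0. The genes ESR1, GKN1, INS, KLK3, PGR and PRSS1 were among the latter. In bulk RNA, a low level in all cells and a higher level in a few cells cannot be told apart.

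HOX genes, which record the position of a tissue along the body axis, were expressed about as often as all genes. Of 39 members 20 were expressed (51.3%, against 49.6% of all genes), but unequally between the clusters. The HOXB cluster (GRCh37 chromosome 17, 46605888 to 46806112) held the largest sum, 119 and 119.6 FPKM over 10 genes, of which 8 were expressed. HOXA (chromosome 7, 27132612 to 27239710) summed to 74.7 and 76.4 FPKM with 8 of 11 genes expressed. The largest values belonged to the middle of both clusters. HOXA9 stood at 39.1 and 39.5 FPKM, HOXB7 at 35.6 and 34.3 FPKM and HOXB8 at 25.2 and 27.2 FPKM. HOXB6, HOXA10, HOXB9 and HOXB4 followed, from 18.8 down to 11.4 FPKM. HOXC (chromosome 12, 54332615 to 54449814) had 4 expressed genes of 9, none above HOXC9 at 4.07 and 2.53 FPKM. HOXD (chromosome 2, 176957449 to 177055635) had none of 9, and HOXD1, HOXD9, HOXD10, HOXD12 and HOXD13 were listed at 0. HOXB13, a factor of the hindmost gut, was expressed at a low 3.07 and 3.05 FPKM. Among expressed HOX genes in order of level, 13 of 19 neighbouring pairs were separated in both libraries.

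**Figure D3:**
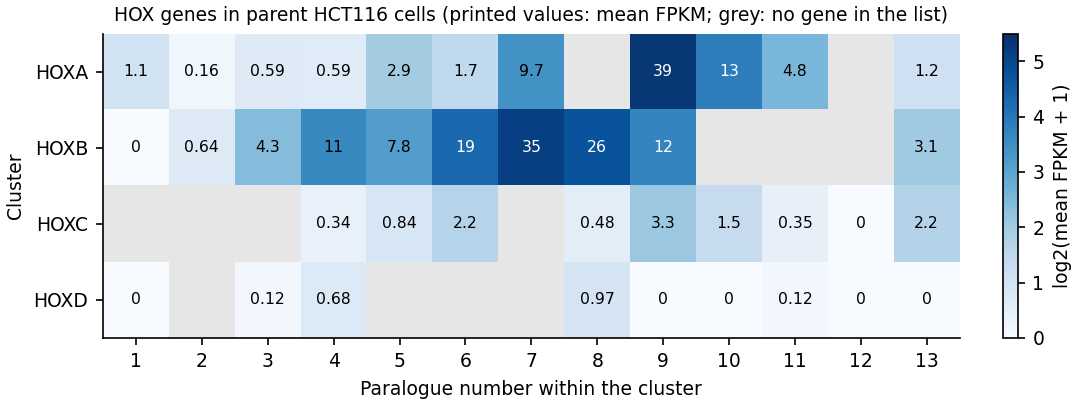
Mean FPKM of each HOX gene in the 2 parent libraries, by cluster (rows) and paralogue number (columns). Colour gives log2(mean FPKM + 1), the printed value is the mean FPKM, and grey squares hold no gene of the list. The darkest squares are HOXA9, HOXB7 and HOXB8, and the HOXD row is pale throughout.

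Markers of intestinal and cancer stem cells ranged from high levels to 0. Of 29 markers 19 were expressed. ALDH1A3, an aldehyde dehydrogenase behind the ALDH activity used to sort cancer stem cells, was highest at 253 and 254 FPKM, while ALDH1A1, the better-known member, was listed at 0. CD44, a hyaluronan receptor, stood at 122 and 122 FPKM, ITGB1 at 151 and 149 FPKM and ALCAM at 28.5 and 26.8 FPKM. PROM1, which encodes CD133, was lower, at 11.96 and 12.9 FPKM. BMI1, a Polycomb subunit, stood at 12.7 and 8.98 FPKM, one of the less even pairs at this level, and the overlapping COMMD3-BMI1 read-through was at 9.06 and 10.5 FPKM. LGR5, the receptor that marks crypt base stem cells, was at 0.0241 and 0.0241 FPKM, which is about the worth of 1 read of a long transcript. ASCL2, OLFM4 and SMOC2, its companions at the crypt base, were listed at 0. Other markers of crypt stem and progenitor cells were expressed, with CDCA7 at 33.7 and 31.7 FPKM, RNF43 at 7.96 FPKM (mean) and EPHB2 at 3.07 and 2.57 FPKM. DCLK1, a tuft cell kinase also used as a cancer stem cell marker, stood at 0.282 and 0.207 FPKM. RNA-binding MSI2 and MSI1 stood at 38.9 and 38.7 FPKM and at 7.49 and 7.62 FPKM. Of 10 pluripotency genes only KLF4 was expressed, at 5.76 and 4.94 FPKM, and SOX2 stood at 0 and 0.0430 FPKM.

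LINC01534, the noncoding RNA that the study went on to silence, was scarce in the parent cells. It stood at 0.285 and 0.571 FPKM, or 0.428 ± 0.202, above 45.1% of all genes. Library 2 was 2.01 times library 1, and after allowance for what 1 read was worth in each library the ratio of reads was 2.000. Small whole numbers of reads stand in such ratios, and no finer level can be read from these values.

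Genes of the fetal or regenerating intestine and of the YAP pathway were widely expressed, 22 of 27 with a median of 13.8 FPKM. S100A6, a small calcium-binding protein, stood at 1232 and 1282 FPKM, ANXA1, an annexin, at 376 and 383 FPKM, ANXA3 at 201 and 193 FPKM and CLU, which encodes clusterin, at 70.2 and 69.5 FPKM. YAP1 itself was at 33.6 and 31.9 FPKM and its DNA-binding partners TEAD4 and TEAD1 were at 26.7 and 28.8 FPKM and at 21.98 and 20.2 FPKM. Among known YAP targets, AMOTL2 and AJUBA stood at 19.1 and 19.9 FPKM and at 17.4 and 17.7 FPKM, and CYR61 stood at 14.9 and 15.4 FPKM, CTGF at 1.85 and 1.62 FPKM and ANKRD1 at 0.168 and 0.0561 FPKM. IL33, a cytokine gene of the same list, was listed at 0. Some S100 and annexin genes stood at high levels. Of 20 S100 genes 11 were expressed (55%, near the 49.6% of all genes), and 8 were listed at 0 in both libraries. At least 100 FPKM was reached by 6 of them, among them S100A4, S100A11, S100A16, S100A14 and S100A10, against 3.67% of all genes. ANXA2 was the highest of 12 annexins at 964 and 999 FPKM. The galectin LGALS1 stood at 631 and 657 FPKM, but LGALS4, the galectin of mature colonocytes, at 0.369 and 0.277 FPKM.

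Genes of mesenchymal cells and of epithelial-mesenchymal transition were expressed about as often as all genes, 9 of 18 members. Apart from S100A4 at 692 and 744 FPKM, none of them reached 10 FPKM, a level that 27.7% of all genes reached. The transition factors SNAI1 and TWIST1 stood at 6.79 and 7.47 FPKM and at 2.91 and 2.24 FPKM, ZEB1 at 0.512 and 0.514 FPKM, and ZEB2 was listed at 0. VIM, which encodes vimentin, stood at 1.23 and 0.873 FPKM, 192 times less than EPCAM. CDH2, which encodes N-cadherin, was at 0.0271 and 0 FPKM, and FN1, fibronectin, at 1.83 and 1.86 FPKM.

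Receptor tyrosine kinases carry growth factor signals into the cell. Of 58 members 30 were expressed (51.7%, close to the share over all genes), 13 at 10 FPKM or more, and 12 were listed at 0. EPHA2, an ephrin receptor, led at 71.4 and 75.7 FPKM, then DDR1, a collagen receptor, at 69.7 and 70.3 FPKM and MET, the receptor of hepatocyte growth factor, at 67.4 and 64.2 FPKM. These 3 held 40.5% of the summed FPKM of the family. PTK7, a Wnt co-receptor without kinase activity, stood at 50.1 and 52.3 FPKM, EPHB4 at 29.7 and 29.9 FPKM and RYK at 26.4 and 27.2 FPKM. In the EGF receptor family, ERBB2 stood at 25.97 and 26.2 FPKM, EGFR at 13.6 and 12.9 FPKM and ERBB3 at 8.32 and 8.49 FPKM, and ERBB4 was listed at 0. ERBB2 was 1.91 times EGFR in library 1 and 2.03 times in library 2. FGFR4 was the highest fibroblast growth factor receptor at 24.5 and 25.4 FPKM, ahead of FGFR1 at 15.8 and 16.7 FPKM. AXL, TYRO3 and MST1R also passed 10 FPKM, at 18.97, 14.1 and 13.4 FPKM. IGF1R and INSR, the receptors of insulin-like growth factor and insulin, were low, at 1.83 and 2.001 FPKM and at 3.19 and 3.76 FPKM. ALK, EPHA3, EPHA5, EPHA6, KIT and PDGFRA were listed at 0. Among the 30 expressed kinases ordered by level, 16 of 29 neighbouring pairs were separated in both libraries, so the order is firm only over wider steps.

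**Figure D4:**
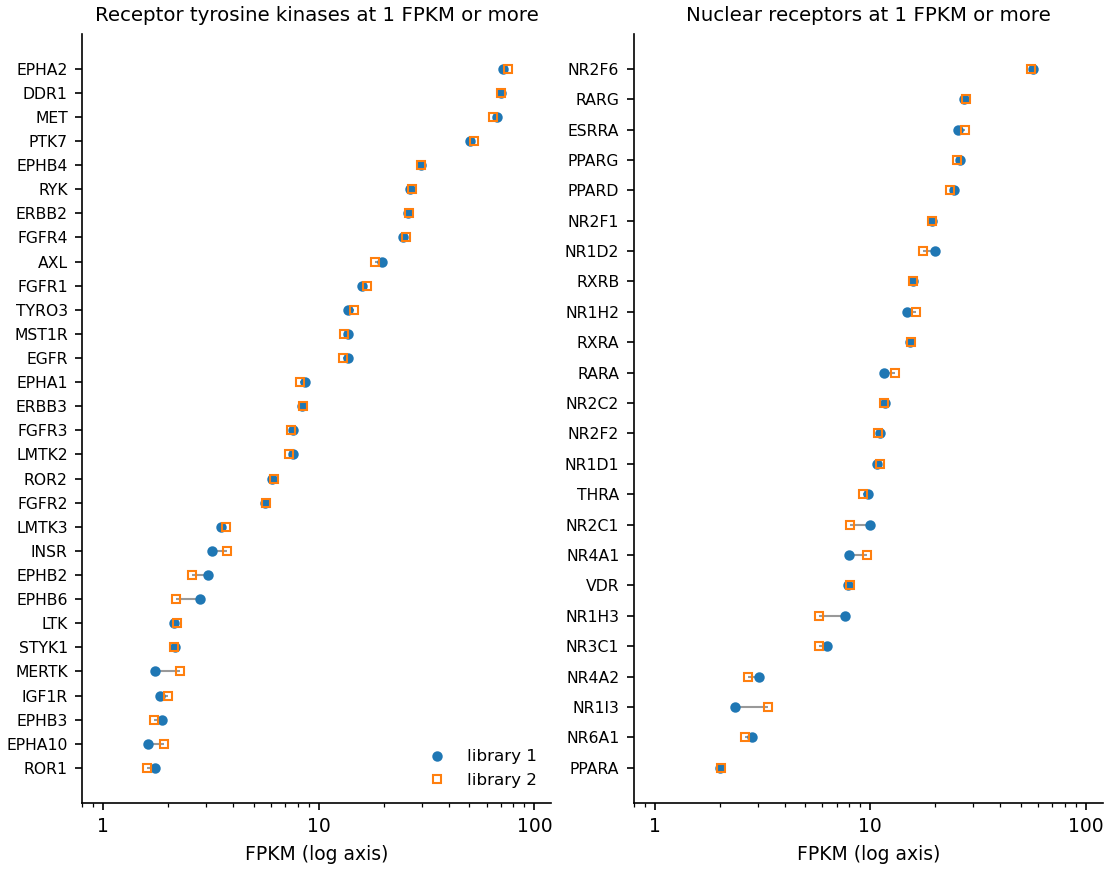
FPKM (horizontal, log axis) of the 30 receptor tyrosine kinases and 24 nuclear receptors with a mean of at least 1 FPKM. Filled circles are library 1, open squares library 2, and grey lines join them. EPHA2, DDR1 and MET head the kinases, and NR2F6 stands apart at the head of the nuclear receptors.

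Of 50 ligands of these receptors 25 were expressed, again close to the share over all genes, and a few held most of the sum. MDK, midkine, stood at 188 and 199 FPKM, EREG, the EGF receptor ligand epiregulin, at 143 and 134 FPKM and KITLG, stem cell factor, at 138 and 132 FPKM. These 3 held 67.4% of the summed FPKM of the ligands. KIT, the receptor of KITLG, was listed at 0. BDNF, a neurotrophin, stood at 40.5 and 36.1 FPKM, TGFA at 21.98 and 19.4 FPKM and VEGFA at 19.5 and 20.5 FPKM. AREG, amphiregulin, was at 3.88 and 5.38 FPKM, and EREG was 29.99 times higher. FGF19, a ligand of FGFR4, stood at 14.8 and 14.2 FPKM. GAS6, the ligand of AXL and TYRO3, was at 17.5 and 16.3 FPKM. HGF, the ligand of MET, was listed at 0, as were ANGPT1, GDNF, NRG3 and PDGFD.

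Nuclear receptors, which are transcription factors that bind lipids and hormones, were led by NR2F6 at 57.1 and 55.7 FPKM. RARG, a retinoic acid receptor, stood at 27.1 and 27.9 FPKM, ESRRA at 25.6 and 27.4 FPKM, PPARG at 25.99 and 25.1 FPKM and PPARD at 24.5 and 23.5 FPKM. In all, 24 of 48 were expressed (50%, close to the 49.6% of all genes). At least 10 FPKM was reached by 14, a level that 27.7% of all genes reached. The rest of these 14 were NR2F1, NR1D2, RXRB, NR1H2, RXRA, RARA, NR2C2, NR2F2 and NR1D1. VDR, the vitamin D receptor, was at 7.91 and 8.02 FPKM and NR3C1, the glucocorticoid receptor, at 6.27 and 5.77 FPKM. ESR1 and PGR, the receptors of oestrogen and progesterone, were listed at 0, and so were NR1H4 and NR1I2, the bile acid and xenobiotic receptors. Only 10 of 23 neighbouring pairs of expressed members were separated in both libraries.

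Of 51 cytokine and death receptors 31 were expressed (60.8%, against 49.6% of all genes). TNFRSF12A, the receptor of TWEAK, stood at 147 and 164 FPKM, LTBR at 58.6 and 61.5 FPKM and the TRAIL receptor TNFRSF10B at 52.8 and 54.8 FPKM. The interferon receptor chains IFNGR1 and IFNAR1 stood at 17.4 and 16.7 FPKM and at 10.5 and 9.89 FPKM. CSF2RB, CSF3R, IL2RA, IL2RB and IL2RG, chains of blood cell receptors, were listed at 0. None of 19 chemokine receptors was expressed, the highest being CXCR4 at 0.539 and 0.473 FPKM. Toll-like receptors had 2 expressed members of 10, TLR3 at 1.57 and 1.19 FPKM and TLR6 at 1.25 and 1.08 FPKM. Among 45 G protein-coupled receptors of the gut, 18 were expressed (40%, under the share over all genes). The highest included GPRC5A at 112 and 110.1 FPKM and F2RL1, a protease-activated receptor, at 75.5 and 72.7 FPKM. NTSR1, the neurotensin receptor, stood at 55.3 and 59.2 FPKM and the adenosine receptor ADORA2B at 44.8 and 46.1 FPKM. Of 26 integrins 10 were expressed (38.5%, also under the share over all genes). They were led by ITGB1 at 151 and 149 FPKM, with ITGA3 at 59.7 and 62.3 FPKM and ITGB4 at 54.3 and 55.1 FPKM. These 3 held 73.2% of the summed integrin FPKM. ITGA4, ITGA8 and ITGAL were listed at 0.

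In the RAS and ERK pathway, nearly every component was expressed, 34 of 36 genes. The small GTPase genes HRAS and NRAS stood at 65.6 and 65.3 FPKM and at 28.8 and 27.01 FPKM. Genes that ERK activity is known to induce ranged widely. FOSL1, an AP-1 subunit, stood at 82.5 and 89.6 FPKM, PHLDA1 at 67.5 and 67.8 FPKM, and the ERK phosphatases DUSP5, DUSP4 and DUSP6 stood at 54.1 and 54.6, at 38.97 and 38.2 and at 36.9 and 33.8 FPKM. EGR1 and SPRY4 stood at 17.7 and 18.4 and at 20.01 and 19.7 FPKM, and SPRED1 and SPRY2 at 6.03 and 5.72 and at 3.48 and 2.97 FPKM. The adaptor GAB1 and SPRY1, another induced inhibitor, were the 2 members under 1 FPKM, at 0.168 and 0.195 FPKM and at 1.07 and 0.739 FPKM. In the PI3K pathway, the kinase genes AKT1 and AKT2 stood at 79.6 and 83.1 FPKM and at 24.1 and 24.1 FPKM. PIK3CA, mutated in this line, stood at 5.84 and 5.69 FPKM, less than PIK3CB at 11.7 and 11.3 FPKM, and the regulatory subunit PIK3R2 was 7.02 times PIK3R1. PIK3CG, the subunit of blood cells, was listed at 0.

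Known targets of Wnt signals lay at both ends of the scale. CTNNB1, which encodes β-catenin, stood at 143 and 141 FPKM. MYC and CCND1, known targets, stood at 184 and 192 FPKM and at 192 and 196 FPKM. DKK1, a secreted Wnt inhibitor, was the highest gene of 33 at 238 and 239 FPKM, 34.1 times AXIN2. AXIN2, a feedback inhibitor, stood at 6.94 and 7.06 FPKM, with RNF43 and ZNRF3, which remove Wnt receptors, at 8.32 and 7.59 FPKM and at 6.95 and 6.60 FPKM. LEF1, ASCL2 and the secreted inhibitors SFRP1, SFRP2, SFRP5 and WIF1 were listed at 0. APC, the tumour suppressor mutated in most colorectal cancers, stood at 6.69 and 6.45 FPKM. The receptors FZD6, LRP5 and FZD5 stood at 20.1 and 16.7, at 16.6 and 16.7 and at 4.32 and 4.38 FPKM, and WLS, needed for Wnt secretion, at 17.3 and 15.7 FPKM. The highest ligands were WNT16 at 5.98 and 5.98 FPKM, WNT7B at 5.36 and 6.39 FPKM and WNT10B at 5.21 and 6.55 FPKM. WNT1, WNT5A, RSPO2 and RSPO3 were listed at 0.

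Among the other developmental pathways, the TGF-beta and BMP list had 24 expressed members of 39 (61.5%). Known BMP targets lay far apart. ID1, ID3 and ID2, inhibitors of differentiation factors, stood at 205 and 199.9, at 84.6 and 85.4 and at 50.1 and 52.2 FPKM, but their relative ID4 was at 0.242 and 0.297 FPKM, and the inhibitory SMAD6 and SMAD7 were at 1.66 and 1.71 and at 2.18 and 2.28 FPKM. The ligand BMP4 stood at 74.2 and 77.9 FPKM. TGFBR2, often mutated in cancers with defective mismatch repair, stood at 16.3 and 15.3 FPKM and SMAD4 at 8.63 and 7.67 FPKM. The antagonists NOG and GREM1 were at 0 and 0.118 and at 0.0265 and 0.0266 FPKM. In the Notch pathway, 18 of 24 genes were expressed, with JAG2 at 27.9 and 28.4 FPKM, NOTCH2 at 17.3 and 16.3 FPKM, NOTCH1 at 11.8 and 12.1 FPKM and the target HES1 at 8.99 and 10.3 FPKM. Hedgehog genes had 4 expressed members of 14. The transducer SMO stood at 8.53 and 8.05 FPKM, GLI1, the target used as its readout, at 0.464 and 0.496 FPKM, and SHH and GLI3 were listed at 0.

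Of 35 cell cycle genes 33 were expressed. PCNA stood at 253 and 264 FPKM, CCNB1 at 169 and 164 FPKM, CDK4 at 154 and 149.6 FPKM and MKI67 at 86.6 and 87.8 FPKM. CCND1 was 7.67 times CCND3, and CCND2 and MYCN were listed at 0. CDKN1A, which encodes the p21 inhibitor, stood at 132 and 135 FPKM, 8.05 times CDKN1B. CDKN2A, which encodes p16 and p14ARF, stood at 23.02 and 24.03 FPKM. GDF15, a stress-induced cytokine gene, was at 180.1 and 180.4 FPKM, the ubiquitin ligase gene MDM2 at 46.97 and 43.3 FPKM and the death gene BAX at 59.9 and 61.4 FPKM. In the BCL2 family, BCL2L1 was highest at 88.3 and 92.3 FPKM and 88.2 times BCL2, and MCL1 stood at 62.01 and 59.6 FPKM. BCL2A1 was listed at 0. Telomere genes were all expressed, 15 of 15, with TERT, the catalytic subunit, lowest at 1.998 and 2.34 FPKM and DKC1 at 116 and 112 FPKM.

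Among the mismatch repair genes, MSH6 stood at 28.5 and 28.7 FPKM and MSH3 at 1.70 and 1.68 FPKM. Of 40 colorectal tumour suppressors and marker genes, 35 were expressed, and DCC, SFRP1 and UNC5C were listed at 0. RUNX3 and MGMT, which are silenced in some colorectal cancers, stood at 10.4 and 10.7 FPKM and at 7.75 and 7.31 FPKM. The machinery of DNA methylation was present. DNMT1 stood at 77.8 and 81.1 FPKM, its recruiter UHRF1 at 78.8 and 77.3 FPKM and DNMT3B at 9.13 and 7.69 FPKM, so that DNMT1 was 9.44 times DNMT3B. The demethylation enzyme TET1 was at 0.611 and 0.486 FPKM and DNMT3L was listed at 0. The Polycomb subunits EZH2 and SUZ12 stood at 39.5 and 37.9 FPKM and at 30.3 and 28.6 FPKM.

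Among 35 surface antigens used as therapy targets or immune ligands, 22 were expressed. EPCAM was the highest, and the poliovirus receptor PVR, the stress ligand MICA and the tissue factor gene F3 stood at 36.3 and 35.8, at 35.3 and 36.7 and at 33.5 and 36.8 FPKM. CD276, an immune checkpoint protein, was at 25.5 and 28.9 FPKM, whereas CD274, which encodes PD-L1, was at 0.570 and 0.427 FPKM. MSLN, mesothelin, stood at 20.6 and 21.5 FPKM. GUCY2C, a target specific to gut epithelium, was at 0.0272 and 0.0273 FPKM. Genes of fluoropyrimidine handling were unequal. TYMS, the enzyme that the drugs block, stood at 137 and 132 FPKM, while DPYD, which breaks the drugs down, was at 0.163 and 0.117 FPKM. The detoxifying enzymes GSTP1 and NQO1 stood at 641 and 664 FPKM and at 157 and 156 FPKM. TOP1, the target of irinotecan, was at 102 and 98.5 FPKM, the drug pumps ABCC1 and ABCB1 were at 35.02 and 33.8 FPKM and at 1.16 and 0.835 FPKM, and UGT1A1, CES1 and CYP2W1 were listed at 0.

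Cytokines and chemokines were mostly under 1 FPKM, with 5 of 32 expressed. IL18, an epithelial alarm cytokine, stood at 46.9 and 48.6 FPKM, CXCL16 at 33.8 and 34.3 FPKM and LIF at 32.8 and 34.7 FPKM, and these 3 held 93.3% of the list's summed FPKM. CXCL8 was at 1.12 and 1.39 FPKM, and CCL2, CXCL5, CXCL12, IL1B and IL6 were listed at 0. Matrix and protease genes were led by the inhibitor TIMP1 at 97.2 and 102 FPKM and the urokinase gene PLAU at 40.4 and 41.6 FPKM. The basement membrane chain LAMA5 stood at 32.3 and 34.2 FPKM, MMP14 at 4.26 and 4.42 FPKM and MMP7, a metalloproteinase common in colorectal tumours, at 0.650 and 0.544 FPKM. MMP1, MMP2, MMP10 and MMP12 were listed at 0.

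Cancer-testis genes, which are normally restricted to germ cells, were at 0 with a few exceptions. Of 36 genes 27 were listed at 0 in both libraries, against 27.6% of all genes, and 3 were expressed. MAGEB2 stood at 121 and 116 FPKM, MAGEA3 at 66.8 and 66.8 FPKM and PRAME at 19.97 and 20.9 FPKM, and together they held 99.2% of the list's summed FPKM. MAGEA6, a near-identical copy of MAGEA3, was given 0.254 and 0.127 FPKM, and how reads were divided between the pair is uncertain. BRDT, CTAG1B, CTCFL, DAZL, MAGEA1 and MAGEA4 were among those listed at 0.

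Long noncoding RNAs of colorectal cancer ranged over the whole scale. GAS5 and SNHG1, hosts of small nucleolar RNAs, stood at 239.96 and 263 FPKM and at 230.2 and 244 FPKM, and DANCR at 109 and 111 FPKM. NEAT1, the scaffold of nuclear paraspeckles, stood at 64.4 and 62.5 FPKM and UCA1 at 32.8 and 34.5 FPKM. PVT1, the neighbour of MYC, was at 28.3 and 31.02 FPKM. CCAT1, a transcript named for colon cancer, was at 3.28 and 3.33 FPKM, and H19 at 1.11 and 1.92 FPKM. HOTAIR, which lies in the HOXC cluster, stood at 0.0927 and 0.230 FPKM. BANCR, HULC and MEG3 were listed at 0.

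Some gene families of other tissues were nearly empty. Of 396 olfactory receptors 369 were listed at 0 and 7 were expressed. None of 36 beta-defensins or 17 type I interferons was expressed, and of 94 keratin-associated proteins of hair 3 were, with KRTAP3-1 highest at 18.2 and 18.5 FPKM. Clustered protocadherins, adhesion proteins of neurons, had 1 expressed gene of 15 in the alpha cluster, none of 16 in the beta cluster and 1 of 22 in the gamma cluster. Among lineage factors, GATA2 was the only GATA gene above 10 FPKM, at 12.3 and 12.9 FPKM, and SOX4 stood above SOX9 at 40.5 and 35.9 FPKM. PAX genes reached at most 1.996 FPKM, for PAX9.

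Expressed genes and genes listed at 0 differed in the CpG number around their starts. CpG dinucleotides are the sites of DNA methylation, and clusters of them, CpG islands, cover the promoters of most widely used genes. RefSeq promoters (250 bases before to 50 after each start, GRCh38.p14) were matched to 16100 of the genes by symbol. For a gene with more than 1 listed start, the CpG number was the mean over its starts, so genes are the units below. The median number of CpG in the 300 bases was 5 for genes listed at 0, 12.5 under 1 FPKM, 24 from 1 to under 10 FPKM, and 27 in both higher classes. At least 20 CpG were found for 20.8% of genes listed at 0 and for 79.9% of genes at 100 FPKM or more, against 53.1% of all. The motif TATAAA was sought on the strand of the gene from 50 to 11 bases before the start, with 1 call per gene. It was found for 7.36% of genes listed at 0, 1.27% from 10 to under 100 FPKM and 4.55% at 100 FPKM or more. The share was 3.93% over all 16100 genes. Among genes with 1 listed start, the shares in those 3 classes were 7.57%, 1.07% and 5.62%. These shares describe letters in a window and were not tested, and no methylation was measured here. The files give 1 value per symbol, so a listed start need not be the one that these cells use.

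**Figure D5:**
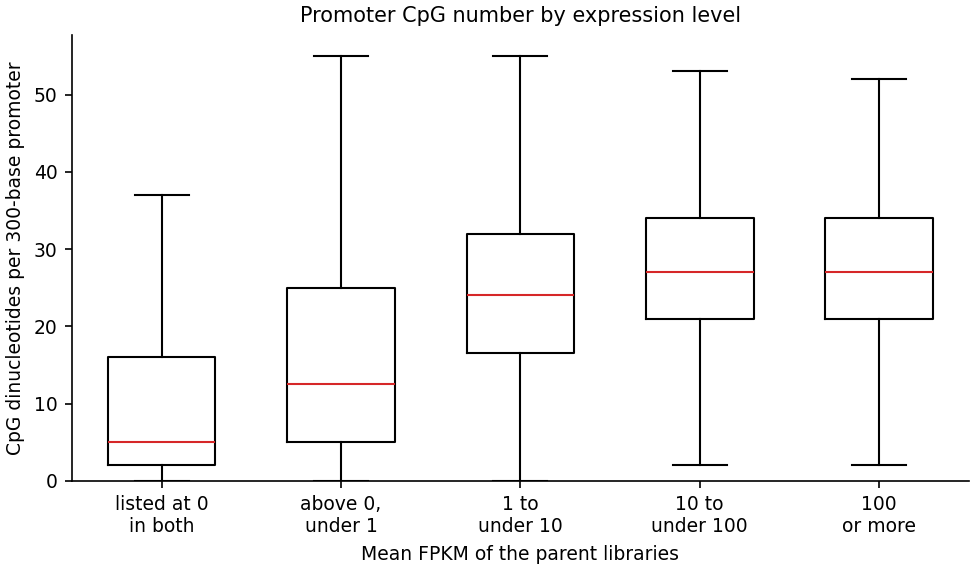
Number of CpG dinucleotides in 300-base RefSeq promoters (vertical) of genes in 5 classes of mean FPKM in the parent libraries (horizontal). The number is the mean over the listed starts of a gene. Boxes span the quartiles, red lines are medians, and whiskers reach the farthest gene within 1.5 interquartile ranges. The median climbs from 5 for genes listed at 0 to 27 at 10 FPKM or more, while the boxes of neighbouring classes overlap.

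Within the lists, genes under 1 FPKM were found with both kinds of promoter. Of the enterocyte and colonocyte genes under 1 FPKM, 22 had a promoter in the table, and 1 of them held at least 20 CpG. HOX genes under 1 FPKM numbered 14 in the table, and 7 of them held at least 20 CpG. Of the 20 expressed HOX genes only 6 were in the table, all from HOXA, and 5 of them held at least 20 CpG. Over all genes with a promoter that share was 20.8% for genes at 0 and 36.1% above 0 and under 1 FPKM. It was 65.5% from 1 to under 10 FPKM and 78.5% from 10 to under 100 FPKM. Of 5 keratins in the table none reached 20 CpG, KRT8 included. The following 250 bases before the start, from RefSeq on GRCh38.p14, 5′ to 3′ on the strand of the gene with CpG in capitals, show the 4 combinations. The genes were chosen after their values were seen. HOXA9 (chr7:27165538-27165787, minus strand, 20 CpG) and DSG2, a desmosomal cadherin (chr18:31497927-31498176, plus strand, 26 CpG), were CpG-rich and expressed. HOXD10 (chr2:176116528-176116777, plus strand, 23 CpG) and CLDN1 (chr3:190322447-190322696, minus strand, 28 CpG) were CpG-rich and listed at 0. KRT8 (chr12:52926470-52926719, minus strand, 1 CpG) was CpG-poor at its 1 listed start and among the highest genes. FABP1 (chr2:88128063-88128312, minus strand, 4 CpG) was CpG-poor and listed at 0. Whether the KRT8 transcripts of these cells begin at the listed start is not known.
HOXA9: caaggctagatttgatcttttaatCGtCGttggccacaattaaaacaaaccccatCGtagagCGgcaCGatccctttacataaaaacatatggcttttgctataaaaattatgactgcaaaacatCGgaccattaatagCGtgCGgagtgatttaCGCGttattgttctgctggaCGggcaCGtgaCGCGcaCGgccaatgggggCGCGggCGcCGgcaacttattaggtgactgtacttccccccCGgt
DSG2: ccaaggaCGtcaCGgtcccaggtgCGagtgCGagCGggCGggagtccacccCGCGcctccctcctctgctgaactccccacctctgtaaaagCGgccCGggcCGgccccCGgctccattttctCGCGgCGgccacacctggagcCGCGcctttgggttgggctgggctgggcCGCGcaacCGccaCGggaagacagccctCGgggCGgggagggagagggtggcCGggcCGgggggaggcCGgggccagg
HOXD10: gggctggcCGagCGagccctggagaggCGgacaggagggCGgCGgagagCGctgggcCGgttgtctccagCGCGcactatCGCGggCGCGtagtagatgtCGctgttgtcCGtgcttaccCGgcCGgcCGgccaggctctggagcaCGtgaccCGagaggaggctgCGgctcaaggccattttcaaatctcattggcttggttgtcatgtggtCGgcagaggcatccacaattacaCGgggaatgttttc
CLDN1: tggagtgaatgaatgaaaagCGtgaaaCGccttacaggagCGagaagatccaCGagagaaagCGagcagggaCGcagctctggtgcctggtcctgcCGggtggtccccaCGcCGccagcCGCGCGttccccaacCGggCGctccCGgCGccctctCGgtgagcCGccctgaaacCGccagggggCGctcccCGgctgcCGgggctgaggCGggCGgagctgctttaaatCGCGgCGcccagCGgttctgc
KRT8: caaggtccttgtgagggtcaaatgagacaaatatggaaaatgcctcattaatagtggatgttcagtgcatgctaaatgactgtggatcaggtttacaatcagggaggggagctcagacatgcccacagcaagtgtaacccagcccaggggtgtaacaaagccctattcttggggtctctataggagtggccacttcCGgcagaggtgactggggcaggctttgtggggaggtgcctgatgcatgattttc
FABP1: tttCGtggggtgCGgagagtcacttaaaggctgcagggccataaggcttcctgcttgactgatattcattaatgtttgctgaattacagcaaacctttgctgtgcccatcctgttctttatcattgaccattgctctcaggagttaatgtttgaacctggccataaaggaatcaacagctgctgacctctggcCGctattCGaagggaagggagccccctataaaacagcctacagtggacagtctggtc
HOXA9 stood at 39.1 and 39.5 FPKM and DSG2 at 48.9 and 47.6 FPKM with such sequences, while HOXD10 with 23 and CLDN1 with 28 CpG were listed at 0 in both libraries. KRT8, with 1 CpG before its listed start, stood at 1686 and 1730.5 FPKM.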

How the data were processed

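RNA-seq of HCT116 cells was analysed for the 2 libraries labelled Parent; the 4 siRNA libraries were not used. Per the study's methods and the submitters' processing notes, the authors made stranded poly(A) libraries, sequenced 75-nt single-end reads and mapped them to hg19 with TopHat2 2.0.13, Bowtie2 2.2.3 and SAMtools 0.1.19. The deposited values are FPKM from Cufflinks 2.2.1 (Cuffnorm), already scaled by transcript length and library size. The annotation behind the symbols is not given in the sources used here. For each group 2 samples are labelled, against 3 cultures in the methods, and the RNA kit named in the labels is not that of the methods.

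From the deposited FPKM, means and SDs were computed with Python 3.11.15, pandas 2.3.3 and numpy 2.4.6, after 2247 short RNA genes were set aside and 37 microRNA host genes kept. With 1 group there was no contrast and no test. The 45 gene lists (all 1258 entries matched a symbol) and the families were chosen with earlier results of these data known. The members named were the highest of each list, members listed at 0 taken in alphabetical order, and those that define a cell type or stand at 10 FPKM or more in the HOX, keratin and receptor lists, with a few others chosen after their values were seen. Reads per library were estimated from 24 genes with 1 annotated transcript (GENCODE on GRCh37), with 200 nt taken off its length, and the arithmetic alone was tested on simulated data with that same correction. 66.8% of low genes stood within 0.3% of a ratio of whole reads up to 6. Results for a few genes are not reported here.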

Additional observations from a re-analysis of the deposited data

How the results depend on the processing

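The number of expressed genes stayed within 1.5 times of 11916 under every alternative tried, and lay between 11900 and 11923 without either replicate. The number of genes listed at 0 behaved in the same way, from 7462 to 7494 without either replicate. Keeping the short RNA genes raised the share of summed FPKM in the 100 highest genes from 32.02% to 67.4%, since 1 short RNA gene then held 49.2% of the sum. The median absolute log2 ratio between the libraries was 0.073 with a pseudocount of 1, 0.080 with 0.1, 0.081 with none and 0.059 for genes at 10 FPKM or more. With no minimum, any value above 0 counting as expressed, expressed members of the lists numbered 950 in place of 624, and 27 of 45 lists moved by more than 1.5 times. Minimums of 0.5 and 2 FPKM each moved 5 lists that far, and leaving out a replicate moved none. The median CpG ratio (observed to expected number) of promoters was 0.304 for genes listed at 0 and 0.829 for expressed genes. Without either replicate the former was 0.311. With genes that have 1 listed start, an alternative chosen after seeing the data, the medians were 0.286 and 0.863, and with a minimum of 0.5 FPKM the latter was 0.823. Rescaling each library to the same sum without short RNA genes multiplied all levels by 1.84 and 1.80. 19 of 1173 list genes stood on different sides of 1 FPKM in the 2 libraries. Setting aside every symbol with a short RNA prefix, host genes included, also chosen after seeing the data, left 11907 expressed genes. No paired analysis was possible because only 1 group was described and no test was run. Depth limits levels under about the worth of 3 reads, and the SD of 2 libraries is itself poorly known.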

Other observations

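Expressed olfactory receptors, which as a family belong to the nose, lay almost all in 1 stretch of the genome beside an embryonic globin gene. The stretch runs from HBB to OR52D1 (GRCh37 chromosome 11, 5246694 to 5510979, 264 kb) and was singled out after the values were seen. Of 9 olfactory receptors in it 6 were at 1 FPKM or more and none was listed at 0. Of the 387 olfactory receptors elsewhere, 1 was at 1 FPKM or more and 369 were listed at 0. OR51B5 stood at 102 and 96.02 FPKM, OR51B4 at 17.6 and 19.8 FPKM, OR51B2 at 6.18 and 5.96 FPKM and OR52D1 at 3.69 and 2.66 FPKM. HBE1, the epsilon globin of the early embryo, stood at 82.5 and 82.4 FPKM. The fetal globin gene HBG2 was at 1.58 and 2.11 FPKM, HBB, the adult β-globin gene, at 0.236 and 0 FPKM, and HBD and HBG1 were listed at 0. In GENCODE, the models of HBE1 and OR51B5 reach to the same base, and the OR51B5 model spans 202 kb and encloses 7 of the other olfactory receptors. The HBG2 model, from 5274418 to 5526835, overlaps the models of both HBE1 and OR51B5. The files give 1 value per symbol, so reads of overlapping models cannot be assigned further.

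Among genes at 10 FPKM or more, SNAR-G1 and VTRNA1-2, both short RNAs, were at 0 in 1 library. SNAR-G1 stood at 29.1 and 0 FPKM and VTRNA1-2 at 0 and 439.9 FPKM. The next largest folds between the libraries were those of LOC101930071 (3.49-fold), NUDT4P1 (3.32-fold) and TMEM256-PLSCR3 (3.05-fold). TMEM256-PLSCR3, a read-through of neighbouring genes, stood at 5.33 and 16.2 FPKM and its overlapping partner PLSCR3 at 16.9 and 8.66 FPKM.

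The highest short RNA gene set aside was MIR6723, at 569406 and 700849 FPKM. Of 2247 short RNA genes 2086 were listed at 0 in both libraries and 66 were above 0 in only 1 of them, among them SNORD100 at 25820.4 and 0 FPKM.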
